A study of Homo sapiens with 12 samples.

Results

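RKO cells, an established line from a human colorectal carcinoma, were compared after 24 h with thymoquinone (TQ) and 5-fluorouracil (5-FU) together and after 24 h without either drug. The comparison rests on 6 of the 12 arrays of the series, 3 labelled as the mixed treatment (TQ+5-FU) and 3 labelled as control cells, and it covers all 22215 probe sets other than the manufacturer's controls. TQ+5-FU cells received 20 µM TQ with 10 µg/mL 5-FU, a dose the labels also give as 76.8 µM. The 3 arrays of 5-FU alone and the 3 of TQ alone, at the same doses and time, entered the fit and are shown beside single genes. The labels call the control cells untreated, while the methods describe DMSO, the solvent, for them. All groups share 1 cell line, and the labels do not say whether replicates were separate cultures. The methods speak of biological replicates in general without tying the arrays to separate cultures, so each p-value rests on the spread among arrays of a group, which may be technical.

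Each array gave a log2 signal for every probe set, and a difference of 1 log2 unit is a 2-fold difference. A gene was read from its brightest probe set, which left 11963 genes. The number of arrays limits the precision, and levels of different genes cannot be compared on this scale. TQ+5-FU replicate 2 stood apart from its replicates: its mean correlation with the other TQ+5-FU arrays over all probe sets was 0.978, against 0.996 between replicates 1 and 3, and its poly-A control signal was 8.94 log2 units, against 8.24 and 8.42 in replicates 1 and 3 and 8.50 to 8.97 in the control arrays. Values without that array are therefore given beside the results. Of the marker lists for epithelial cells, leukocytes, fibroblasts and endothelial cells, no gene passed in TQ+5-FU against control (limma on all 12 arrays). The count was also 0 at an unadjusted p under 0.05, with Tukey's HSD test and with the methods' t-test after Benjamini-Hochberg. In limma without TQ+5-FU replicate 2 and 5-FU replicate 3, 1 of the 10 epithelial genes rose, beside 12.7% of all genes. Fitting the TQ+5-FU and control arrays alone without TQ+5-FU replicate 2, 2 of the 10 rose, beside 10.1% of all genes. No gene of the other marker lists passed in these fits. The epithelial genes KRT18 and EPCAM averaged 12.3 and 9.46 log2 units in TQ+5-FU cells and 12.1 and 9.04 in control cells. CDH1, VIL1 and KRT20 averaged 3.83, 3.98 and 2.87 log2 units in TQ+5-FU cells and 3.72, 3.65 and 3.03 in control cells, well under the array medians of 6.43 to 6.55.

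As background, 5-FU is a pyrimidine analog that blocks thymidylate synthase and is built into RNA and DNA, and cells with functional p53 answer such damage by transcribing p53 target genes. TQ is a quinone from black cumin seed that can react with protein thiols, a kind of stress known to engage heat shock factor 1, which drives chaperone genes, and NRF2, which drives antioxidant genes. Growth factor and stress kinases act on immediate early genes such as FOS, whose transcripts appear and decay quickly.

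With both drugs, 213 genes rose and 102 fell at an adjusted p under 0.05 (limma with Benjamini-Hochberg adjustment over all probe sets), which is 2.63% of the genes tested, 1.78% for increases and 0.853% for decreases. The increases were larger in this fit: 95 genes rose (0.794%) and 12 fell (0.1%) by at least 2-fold, and the median size of the change was 0.94 log2 units among genes that rose and 0.66 among those that fell. This asymmetry did not hold with the poly-A signal as a covariate, where 221 probe sets rose and 235 fell by at least 2-fold, against 147 and 40 without the covariate. The other settings run kept more increases than decreases, with 102 and 25 without TQ+5-FU replicate 2 and 130 and 36 after quantile normalization. By probe set, 328 rose and 245 fell, which is 2.58% of those tested. In all 315 genes the 3 TQ+5-FU arrays lay on one side of the 3 control arrays, as they did in 24.7% of all genes. Without TQ+5-FU replicate 2, 103 genes rose (0.861%) and 43 fell (0.359%), 1.22% in all, and 143 of these 146 were among the 315. Without that array and without 5-FU replicate 3, which also stands apart from its replicates and enters only through the estimate of the spread, 2716 genes passed (22.7%) and all 315 were among them with the same sign. The plot of all genes shows the fit without the covariate, with increases past 3 log2 units and no called decrease larger than 1.64. RNA was measured in bulk, so that a change in every cell and a change in the share of cells that carry a transcript cannot be told apart.

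**Figure D1:**
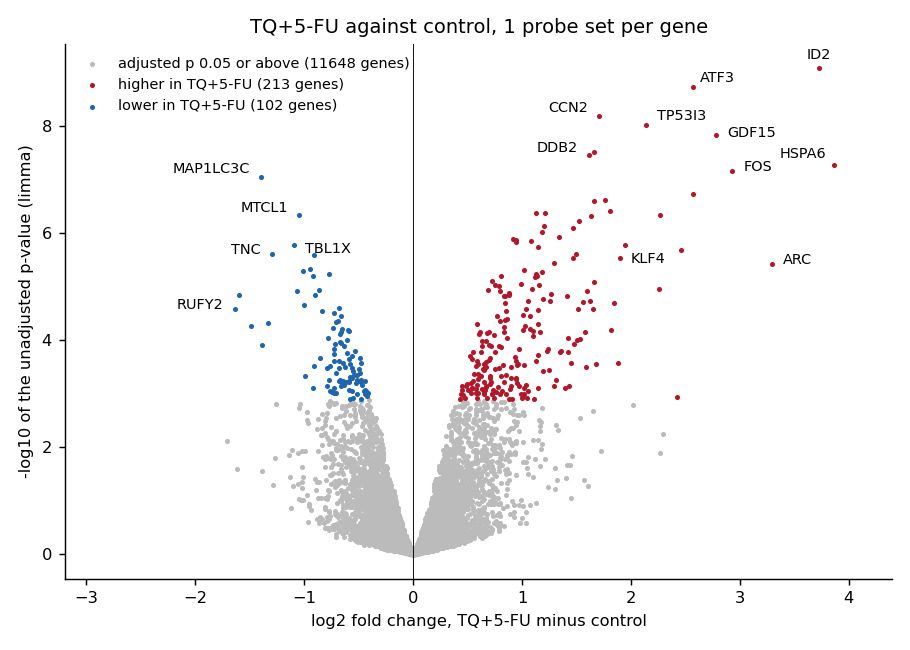
Log2 fold change of TQ+5-FU minus control (x axis) against the -log10 unadjusted p-value of limma (y axis) for 11963 genes, each read from 1 probe set. Red points are the 213 genes that rose and blue points the 102 that fell at an adjusted p under 0.05; HSPA6 and ID2 lie farthest to the right and RUFY2 farthest to the left of the colored points.

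The largest increase belonged to HSPA6, an inducible chaperone of the HSP70 family that is nearly silent in unstressed human cells. HSPA6 (chromosome 1) read 8.97, 9.49 and 8.78 log2 units in TQ+5-FU replicates 1, 2 and 3, against 5.17, 5.33 and 5.17 in the control arrays. The lowest TQ+5-FU array was over 3 log2 units above the highest control array. The difference was 3.86 ± 0.28 log2 units (SE), or 14.5-fold, with an adjusted p of 0.000102, and 3.66 with an adjusted p of 0.000716 without replicate 2. The nearly identical copy HSPA7 may share this signal.

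ID2, which binds basic helix-loop-helix factors and keeps them off DNA, followed with 10.25, 10.20 and 9.90 log2 units in TQ+5-FU cells, against 6.34, 6.28 and 6.55 in control cells. This was a 13.2-fold increase (3.73 ± 0.18 log2 units, adjusted p = 6.29e-06), and replicate 2 lay between its replicates. ID2 is also among the genes that the study chose on these samples, so its direction is not independent evidence. ARC, an immediate early gene best known from neurons, rose 9.78-fold, and FOS, a subunit of the AP-1 transcription factor, rose 7.63-fold. FOS read 10.08, 10.26 and 9.91 log2 units in TQ+5-FU cells, against 6.94, 7.17 and 7.34 in control cells (2.93 ± 0.22, adjusted p = 0.000121).

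The rest of the 15 largest increases included several stress-induced regulators. GDF15, a secreted stress cytokine and p53 target, rose 6.88-fold, and the growth arrest gene GADD45B and the stress-induced transcription factor ATF3 each rose 5.93-fold. SNAI1, a repressor of epithelial genes, rose 5.49-fold, while of the 19 genes in the list of epithelial-mesenchymal transition regulators and epithelial markers it was the only one to pass. ACTA2, H3C2, TP53I3, GREB1, KLF4 and SERPINI1 rose by 3.69- to 4.80-fold. RGS20, which dampens G protein signaling, read 7.09, 5.79 and 6.52 log2 units in TQ+5-FU cells, against 4.28, 4.18 and 3.66 in control cells. Its call was the least firm of the 15, with an adjusted p of 0.0458 that became 0.0703 without TQ+5-FU replicate 2 and 0.185 without control replicate 3. SERPINI1, the serine protease inhibitor neuroserpin, had an adjusted p of 0.0201, which was 0.0939 without control replicate 3.

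**Figure D2:**
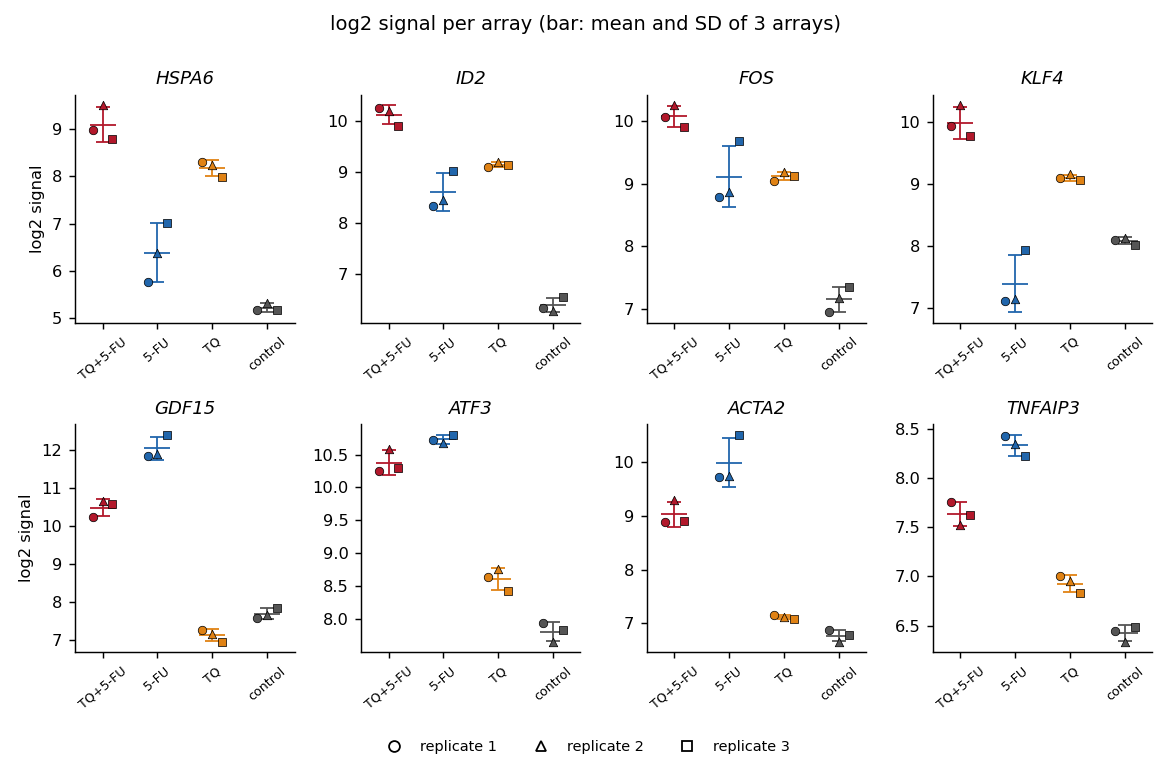
Log2 signal (y axis) of 8 genes that rose with both drugs, in the arrays of TQ+5-FU, 5-FU, TQ and control cells (x axis, left to right); symbols mark replicates and bars the mean and SD of 3 arrays. In HSPA6, ID2, FOS and KLF4 the TQ+5-FU arrays lie above those of all other groups, whereas in GDF15, ACTA2 and TNFAIP3 they lie between 5-FU and TQ.

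Stretches of DNA before 3 of the genes that rose are shown because they hold the binding motifs known for heat shock factor 1 and NF-kB, drivers of chaperone and inflammatory genes. Each is the 250 bases before the RefSeq gene start in GRCh38.p14, read 5′ to 3′ on the gene's strand. In HSPA6 (chr1:161524290-161524539, plus strand) and in 1 of the 3 annotated starts of DNAJB1 (chr19:14518398-14518647, minus strand), capitals mark the heat shock motif GAANNTTC. In TNFAIP3 (chr6:137867009-137867258, plus strand), capitals mark 2 matches to the consensus NF-kB site.
HSPA6: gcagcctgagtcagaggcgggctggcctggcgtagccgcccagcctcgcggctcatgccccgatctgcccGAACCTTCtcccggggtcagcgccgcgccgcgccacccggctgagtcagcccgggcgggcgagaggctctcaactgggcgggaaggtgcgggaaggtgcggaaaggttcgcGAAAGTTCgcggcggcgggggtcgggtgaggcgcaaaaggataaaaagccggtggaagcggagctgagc
DNAJB1: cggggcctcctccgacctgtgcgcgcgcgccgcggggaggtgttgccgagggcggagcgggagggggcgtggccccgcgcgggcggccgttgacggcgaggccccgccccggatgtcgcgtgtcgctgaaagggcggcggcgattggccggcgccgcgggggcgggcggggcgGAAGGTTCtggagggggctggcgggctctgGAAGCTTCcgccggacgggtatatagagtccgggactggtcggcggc
TNFAIP3: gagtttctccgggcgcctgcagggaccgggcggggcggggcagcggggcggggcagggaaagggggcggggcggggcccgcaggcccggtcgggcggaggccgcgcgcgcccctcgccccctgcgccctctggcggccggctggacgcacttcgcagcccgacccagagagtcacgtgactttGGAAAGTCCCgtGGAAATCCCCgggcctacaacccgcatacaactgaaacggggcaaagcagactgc
The heat shock motif, which reads the same on both strands, was present in 5.78% of all 35116 RefSeq windows of this length and the NF-kB site, on either strand, in 5.21%. Of the 15 genes with the largest increases, 11 had a window, and 3 of them (HSPA6, H3C2 and TP53I3) held the heat shock motif. The AP-1 motif TGANTCA, present in 6.57% of all windows, matched at 1 of the 11, HSPA6, and the cyclic AMP response motif TGACGTCA, present in 1.65%, at 1, H3C2. The antioxidant response motif TGACNNNGC, present in 10.9%, matched at HSPA6, where it overlaps an AP-1 match. The NF-kB site matched at none of the 11. The consensus p53 decamer, present in 5.57% on either strand, matched at ACTA2 and H3C2. FOS, ID2, KLF4 and GDF15 held none of the motifs searched in these windows. A gene can have several windows, and counted by gene, as in these matches, the share with a motif among 9563 measured genes was 6.35% for heat shock, 7.13% for AP-1, 3.33% for cyclic AMP response, 16% for antioxidant response, 8.09% for NF-kB and 6.85% for p53. A match is a description of the letters and not a binding site.

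Targets of p53 formed the list with the highest share of calls. Of 25 measured members, 12 rose and none fell (48%, beside 2.63% of all genes), all 25 had a positive log2 fold change, and the median was 1.13 log2 units, beside 0.014 over all genes. The median over the list lay 1.17, 1.15 and 1.08 log2 units above the control mean in TQ+5-FU replicates 1, 2 and 3, so that replicate 2 did not stand apart here. GDF15 read 10.23, 10.65 and 10.58 log2 units in TQ+5-FU cells, against 7.59, 7.66 and 7.86 in control cells (2.78 ± 0.18, adjusted p = 4.79e-05). TP53I3, an oxidoreductase linked to p53-dependent death, read 10.69, 10.85 and 10.86 log2 units in TQ+5-FU cells, against 8.54, 8.63 and 8.82 in control cells (2.14 ± 0.13, adjusted p = 3.61e-05). The groups were separated by over 1.8 log2 units in both genes.

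ACTA2, smooth muscle actin, whose gene lies next to FAS, rose by 2.26 ± 0.20 log2 units (adjusted p = 0.000370). DDB2, which recognises damaged bases for nucleotide excision repair, had 10.31, 10.51 and 10.40 log2 units in TQ+5-FU cells, against 8.78, 8.72 and 8.89 in control cells (1.61 ± 0.11, adjusted p = 7.27e-05). The other members that rose were MDM2, the ubiquitin ligase that degrades p53, the kinase PLK3, the AKT inhibitor PHLDA3, the growth arrest gene GADD45A, the adhesion protein NINJ1, the nuclease AEN, the cell cycle inhibitor CDKN1A and EI24. Their differences ran from 0.43 in EI24 to 1.60 in MDM2. CDKN1A, at 11.26, 11.45 and 11.35 log2 units in TQ+5-FU cells and 10.62, 10.67 and 10.73 in control cells, was near the threshold (0.68 ± 0.15, adjusted p = 0.0474). Without replicate 2, 7 of the 12 passed. When 5-FU replicate 3 was also left out, 23 of the 25 measured members rose and none fell, beside 12.7% and 10.0% of all genes.

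Among the 13 members that did not pass, PLK2 and SESN1 had large differences, each with its lowest TQ+5-FU signal in replicate 2. PLK2, a kinase of the polo family, read 6.35, 4.81 and 6.01 log2 units in TQ+5-FU cells, against 3.46, 3.30 and 3.53 in control cells (2.29 ± 0.66, adjusted p = 0.122). SESN1, an inhibitor of mTORC1 signaling, read 9.98, 9.13 and 9.84 log2 units in TQ+5-FU cells, against 7.71, 7.61 and 7.59 in control cells (2.01 ± 0.48, adjusted p = 0.0573). In both genes the groups did not overlap, as in 24.7% of all genes.

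Heat shock proteins and their cochaperones changed in a few members. Of 23 measured, 4 rose and none fell (17.4%), with a median of 0.30 log2 units. Beside HSPA6 these were CLU, a secreted chaperone, DNAJB1, the HSP40 partner of HSP70, and HSPA1L, a member of the HSP70 family. CLU had 11.47, 11.67 and 11.50 log2 units in TQ+5-FU cells, against 9.71, 9.74 and 9.79 in control cells (1.80 ± 0.16, adjusted p = 0.000362). DNAJB1, whose motif-bearing start is printed above, had 11.52, 11.84 and 11.59 log2 units in TQ+5-FU cells, against 10.66, 10.54 and 10.72 in control cells (1.01 ± 0.15, adjusted p = 0.00519). HSPA1L differed by 0.72 ± 0.16 (adjusted p = 0.0425, and 0.155 without replicate 2). Chaperones that cells make without stress, such as HSPD1, HSPE1 and HSP90AB1, did not pass.

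NRF2 targets gave 5 increases and no decrease among 26 measured (19.2%), while the median of the list was 0.092 log2 units. NQO1, a quinone reductase, read 12.28, 12.42 and 12.34 log2 units in TQ+5-FU cells, against 11.45, 11.36 and 11.48 in control cells (0.92 ± 0.09, adjusted p = 0.000712). It was the only member that passed without replicate 2 (adjusted p = 0.00461). HMOX1, which degrades heme, had a difference of 1.23 ± 0.21 (adjusted p = 0.0143), and OSGIN1, AKR1B10 and GCLM had differences of 1.11, 1.02 and 0.65. Without replicate 2 the adjusted p was 0.0680 for HMOX1, 0.174 for OSGIN1 and 0.0703 for AKR1B10. Of the 26 measured NRF2 targets, 7 rose and 1 fell when 5-FU replicate 3 was also left out, beside 12.7% and 10.0% of all genes. None of the 9 measured metallothioneins, small metal-binding stress proteins, passed in limma on all 12 arrays. At an unadjusted p under 0.05 and with the methods' tests the count was also 0. Without TQ+5-FU replicate 2 and 5-FU replicate 3, 1 rose and 1 fell, beside 22.7% of all genes that passed.

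Among 21 measured immediate early genes, 7 rose and none fell (33.3%), and the median was 0.67 log2 units. After ARC and FOS came KLF4, a zinc finger factor of epithelial differentiation, with 9.92, 10.26 and 9.76 log2 units in TQ+5-FU cells, against 8.09, 8.14 and 8.02 in control cells (1.90 ± 0.21, adjusted p = 0.00118). FOSB, a further AP-1 subunit, differed by 1.59 ± 0.30 (adjusted p = 0.0216, and 0.0903 without replicate 2). DUSP1, a phosphatase of the MAP kinases, the stress gene IER3 and the nuclear receptor NR4A2 had differences of 1.10, 0.93 and 0.82. JUN, EGR1, MYC and IER2 were measured and did not pass. Without replicate 2, 4 of the 7 passed. Of the 21 measured, 15 rose and 2 fell when 5-FU replicate 3 was also left out, beside 12.7% and 10.0% of all genes.

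The feedback inhibitors of ERK signaling, a pathway that drives many immediate early genes, went the other way in 2 of 15 members. SPRY4, a feedback inhibitor of receptor tyrosine kinases, had 10.75, 10.87 and 10.81 log2 units in TQ+5-FU cells, against 11.89, 11.88 and 11.86 in control cells (−1.07 ± 0.14, adjusted p = 0.00288). SPRED2 fell by 0.52 ± 0.10 (adjusted p = 0.0303, and 0.0886 without replicate 2). The single increase in this list was IER3, which the immediate early list also holds.

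In the list of ID genes, SMADs and TGF-beta targets, 4 of 17 rose and none fell (23.5%), with a median of 0.24. Beside ID2 these were its relatives ID1 and ID3 and the pseudoreceptor BAMBI, which blocks TGF-beta signaling. BAMBI had 9.04, 9.43 and 9.06 log2 units in TQ+5-FU cells, against 7.59, 7.59 and 7.82 in control cells (1.51 ± 0.21, adjusted p = 0.00452). ID1 and ID3 differed by 1.48 and 1.36 and lost the call without replicate 2, with adjusted p of 0.0583 and 0.0680. ID4, SMAD6 and TGFBI did not pass.

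NF-kB targets gave 3 increases among 25 measured (12%), with a median of 0.38. TNFAIP3, the deubiquitinase A20 that ends NF-kB signaling, had 7.76, 7.52 and 7.63 log2 units in TQ+5-FU cells, against 6.45, 6.34 and 6.49 in control cells (1.21 ± 0.11, adjusted p = 0.000367). It kept the call without replicate 2 (adjusted p = 0.00180). The adaptor TRAF1 and the surface protein CD83 differed by 1.31 and 0.58, with adjusted p of 0.0303 and 0.0343 that became 0.117 and 0.126 without replicate 2. The chemokines CXCL8, CXCL1 and CCL20 and the inhibitor NFKBIA did not pass.

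**Figure D3:**
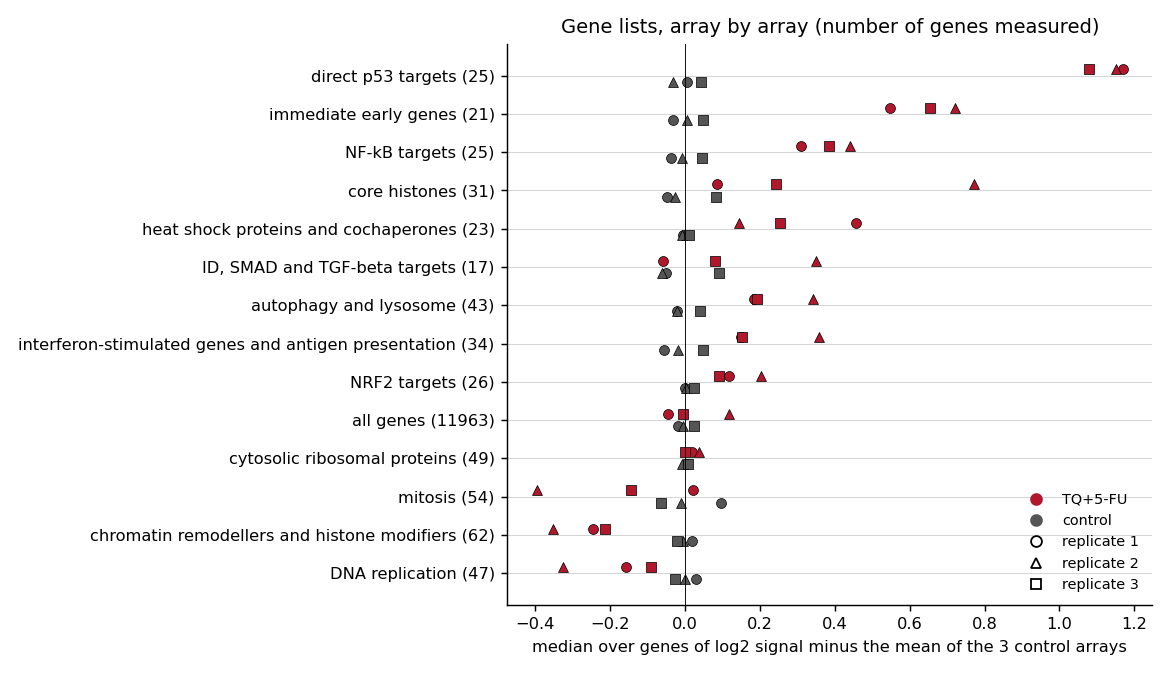
Median over the measured genes of each list (number in parentheses) of the log2 signal minus the mean of the 3 control arrays (x axis), for each TQ+5-FU array (red) and control array (grey); symbols mark replicates. The p53 targets lie between 1.08 and 1.17 in all 3 TQ+5-FU arrays, whereas the core histones lie at 0.772 in replicate 2 and at 0.0846 and 0.243 in replicates 1 and 3.

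Core histone genes, whose transcripts are normally made during DNA replication, gave 7 increases and no decrease among 31 measured (22.6%). The median over the list was 0.772 log2 units above the control mean in replicate 2, against 0.0846 and 0.243 in replicates 1 and 3. The part of replicate 2 in the calls was not tested. Without replicate 2, 4 of the 7 passed, beside 143 of the 315 genes called with all arrays. In the fit that also left out 5-FU replicate 3, 11 of the 31 rose and none fell, beside 12.7% and 10.0% of all genes. H3C2 read 7.17, 8.37 and 7.29 log2 units in TQ+5-FU cells, against 5.42, 5.39 and 5.23 in control cells (2.26 ± 0.29, adjusted p = 0.00281), and differed by 1.88 without replicate 2 (adjusted p = 0.00241). H2BC12 had 11.46, 11.82 and 11.62 log2 units in TQ+5-FU cells, against 10.38, 10.42 and 10.49 in control cells (1.20 ± 0.11, adjusted p = 0.000510). Histone genes of a class are nearly identical in sequence, so the probe sets may not tell them apart.

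Of 43 autophagy and lysosome genes, 6 rose and none fell (14%), by 0.67 to 0.88 log2 units. GABARAPL2, an ATG8-family protein of the autophagosome membrane, had 12.03, 12.04 and 12.04 log2 units in TQ+5-FU cells, against 11.28, 11.26 and 11.33 in control cells (0.75 ± 0.09, adjusted p = 0.00257). Its relatives GABARAPL1 and MAP1LC3B also rose, as did WIPI1, which acts early in autophagosome formation, the lysosomal cholesterol carrier NPC2 and the sialidase NEU1. Without replicate 2, 4 of the 6 passed, and NEU1 was not among them (adjusted p = 0.143). Of the 43 measured, 17 rose and none fell when 5-FU replicate 3 was also left out, beside 12.7% and 10.0% of all genes. MAP1LC3C, a further ATG8-family gene that the list does not hold, was among the largest decreases. It read 10.51, 10.63 and 10.62 log2 units in TQ+5-FU cells, against 11.99, 12.02 and 11.95 in control cells (−1.40 ± 0.11, adjusted p = 0.000142).

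Interferon-stimulated and antigen presentation genes gave 5 increases among 34 measured (14.7%), in IRF7, TAP1, IFI6, ISG20 and PSMB8. IRF7, a transcription factor of the interferon response, differed by 1.42 ± 0.23 (adjusted p = 0.00986), and TAP1, a peptide transporter for antigen presentation, by 1.15 ± 0.17 (adjusted p = 0.00676). Without replicate 2 these were the only members to pass, with adjusted p of 0.0476 and 0.0357. Of the 34 measured, 12 rose and 1 fell when 5-FU replicate 3 was also left out, beside 12.7% and 10.0% of all genes. Classical interferon targets such as IFIT1, MX1 and OAS1 did not pass.

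Several further genes rose with little spread. CCN2, a matricellular growth factor and target of YAP, had 8.42, 8.51 and 8.45 log2 units in TQ+5-FU cells, against 6.82, 6.69 and 6.76 in control cells (1.71 ± 0.10, adjusted p = 2.93e-05). CCN1, its relative and likewise a YAP target, fell by 0.45 ± 0.10 (adjusted p = 0.0425, and 0.118 without replicate 2). SERPINE2, an inhibitor of urokinase and thrombin, had 7.89, 8.24 and 8.23 log2 units in TQ+5-FU cells, against 6.20, 6.34 and 6.53 in control cells (1.76 ± 0.15, adjusted p = 0.000271), and the protease urokinase itself, PLAU, differed by −0.78 ± 0.16 (adjusted p = 0.0303). ADM, the vasodilator peptide adrenomedullin, rose by 1.47 ± 0.16 (adjusted p = 0.00118), and the tubulin TUBB2A by 1.14 ± 0.16 (adjusted p = 0.00453).

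Several genes that fell had little spread. TNC, the matrix glycoprotein tenascin-C, had 6.40, 6.67 and 6.48 log2 units in TQ+5-FU cells, against 7.77, 7.87 and 7.81 in control cells (−1.30 ± 0.14, adjusted p = 0.00108). TBL1X, a component of the NCoR corepressor, had 8.16, 8.25 and 8.39 log2 units in TQ+5-FU cells, against 9.36, 9.34 and 9.37 in control cells (−1.09 ± 0.11, adjusted p = 0.000791). MTCL1, which crosslinks microtubules, had 8.74, 8.62 and 8.80 log2 units in TQ+5-FU cells, against 9.78, 9.79 and 9.73 in control cells (−1.05 ± 0.09, adjusted p = 0.000370). The rule that named these genes required all TQ+5-FU arrays to lie below all control arrays, so that separation is no separate result. Each of these genes kept the call without replicate 2.

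The largest decrease by fold was that of RUFY2, an endosomal adaptor, in a probe set dimmer than the array medians. RUFY2 had 4.84, 3.88 and 4.69 log2 units in TQ+5-FU cells, against 6.31, 6.07 and 5.95 in control cells (−1.64 ± 0.23, adjusted p = 0.00452). KIAA0754, the bicarbonate transporter SLC4A8 and the noncoding transcripts MCM3AP-AS1 and SND1-IT1 fell by 1.33 to 1.60 log2 units. MCM3AP-AS1 lost the call without replicate 2 (adjusted p = 0.0571). The chromatin regulator ASXL1 fell by 1.01 ± 0.12 (adjusted p = 0.00173), FRMD4A by 1.00 ± 0.14 (adjusted p = 0.00387) and the calcium channel ITPR3 by 0.95 ± 0.11 (adjusted p = 0.00164). ANKRD11 and DLC1, which differed by −0.99 and −0.92, lost the call without replicate 2 (adjusted p of 0.110 and 0.137).

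**Figure D4:**
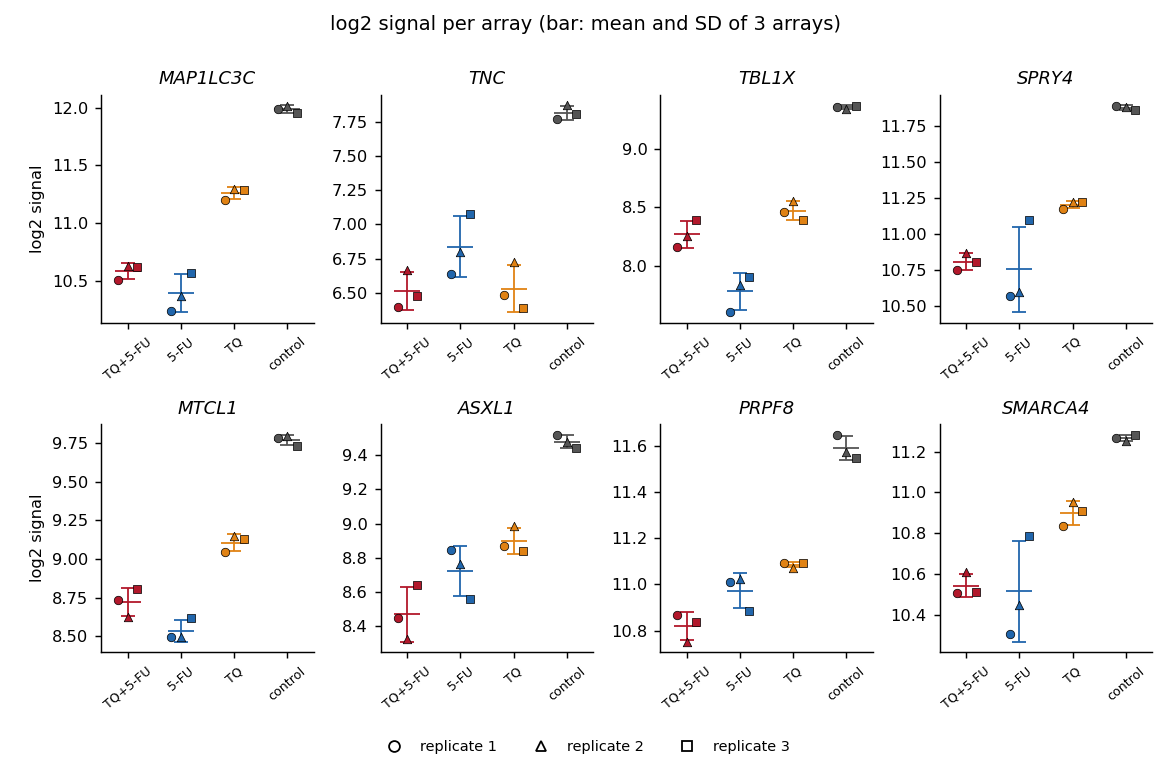
Log2 signal (y axis) of 8 genes that fell with both drugs, in the arrays of TQ+5-FU, 5-FU, TQ and control cells (x axis, left to right); symbols mark replicates and bars the mean and SD of 3 arrays. The control arrays of MAP1LC3C lie between 11.95 and 12.02 and its TQ+5-FU arrays between 10.51 and 10.63.

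Chromatin remodellers and histone modifiers were the list with the most decreases, with 7 of 62 lower and none higher (11.3%) and a median of −0.22 log2 units. The median over the list minus the control mean was −0.246, −0.354 and −0.214 log2 units in TQ+5-FU replicates 1, 2 and 3. SMARCA4, the ATPase of the SWI/SNF complex, had 10.51, 10.61 and 10.51 log2 units in TQ+5-FU cells, against 11.27, 11.25 and 11.28 in control cells (−0.72 ± 0.12, adjusted p = 0.0135). HDAC4, a histone deacetylase, NSD2, a histone methyltransferase, and ARID1A, a SWI/SNF subunit, differed by −0.76, −0.67 and −0.59, and CHD3, DNMT1 and KDM1A also passed. Without replicate 2, 3 of the 7 passed, and ARID1A was not among them (adjusted p = 0.129). Of the 62 measured, 24 fell and 4 rose when 5-FU replicate 3 was also left out, beside 10.0% and 12.7% of all genes.

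Among genes of growth and division, the share that passed, beside 2.63% of all genes, was 2.13% in DNA replication, 1.85% in mitosis, 3.7% among cyclins, 3.64% in splicing and 5.0% in ribosome biogenesis. Of 47 DNA replication genes only MCM7, a subunit of the replicative helicase, passed, with −0.74 ± 0.11 (adjusted p = 0.00741). Of 54 mitosis genes only INCENP passed, a scaffold of the chromosomal passenger complex (−0.91 ± 0.17, adjusted p = 0.0214, and 0.0660 without replicate 2). Without TQ+5-FU replicate 2 and 5-FU replicate 3, 14 of the 47 and 15 of the 54 fell, beside 10.0% of all genes. In that fit 7 of 27 genes of the cyclin list, 12 of 55 in splicing and 14 of 40 in ribosome biogenesis fell. In DNA replication, mitosis, cyclins, splicing and ribosome biogenesis 3, 5, 4, 2 and 3 genes rose, beside 12.7% of all genes. The medians of DNA replication and mitosis with all arrays were −0.22 and −0.21 log2 units. In mitosis the arrays disagreed, with 0.0217, −0.397 and −0.146 in TQ+5-FU replicates 1, 2 and 3. Cyclin E1, CCNE1, was the only one of 27 cyclin, E2F and pocket protein genes to pass, with 0.70 ± 0.13 (adjusted p = 0.0174, and 0.0741 without replicate 2). In splicing, 2 of 55 fell, among them PRPF8, the central scaffold of the spliceosome, which had 10.87, 10.75 and 10.84 log2 units in TQ+5-FU cells, against 11.65, 11.58 and 11.55 in control cells (−0.77 ± 0.09, adjusted p = 0.00183). In ribosome biogenesis 2 of 40 fell, NAT10 and POLR1B, by 0.66 and 0.56.

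In 6 further lists no gene passed in limma. These were the 21 genes of fluoropyrimidine and thymidylate metabolism, which include the enzymes that activate and break down 5-FU, the 49 cytosolic ribosomal proteins, the 60 oxidative phosphorylation genes, the 18 genes of the unfolded protein response, the 22 genes of death receptor signaling and the 19 of the BCL-2 family and apoptosome. At an unadjusted p under 0.05 in limma, 3, 0, 3, 2, 5 and 4 genes of these lists passed, in the order named, beside 11.2% of all genes. Tukey's HSD test called 0, 3, 3, 2, 2 and 1, beside 1027 of all 22215 probe sets. The methods' t-test after Benjamini-Hochberg called 0, 2, 1, 0, 0 and 0, beside 546 of all probe sets. Limma without TQ+5-FU replicate 2 and 5-FU replicate 3 called 2, 0, 3, 3, 7 and 5 higher, beside 12.7% of all genes. It called 2, 0, 2, 2, 2 and 1 lower, beside 10.0% of all genes. Of the genes of the integrated stress response, ATF3 rose, at 10.26, 10.59 and 10.29 log2 units in TQ+5-FU cells, against 7.93, 7.66 and 7.84 in control cells (2.57 ± 0.13, adjusted p = 1.07e-05). ATF4, the factor at the center of that response, fell by 0.47 ± 0.10 (adjusted p = 0.0342, and 0.0680 without replicate 2). None of the other 21 measured members passed.

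The study chose 10 genes linked to cell death on these samples, of which 9 were measured by a probe set of their own, and BIRC3 was not analysed here. ID2 and FOS passed. FAS, a death receptor and p53 target, read 10.812, 9.175 and 10.286 log2 units in TQ+5-FU cells, against 7.998, 7.718 and 7.767 in control cells (2.26 ± 0.75, adjusted p = 0.200). The groups did not overlap, as in 24.7% of all genes. The FAS difference was 2.72 without replicate 2 (adjusted p = 0.201, and 2.7e-06 when 5-FU replicate 3 was also left out). MAP3K8, a kinase upstream of ERK, differed by 1.65 ± 0.41 (adjusted p = 0.0677), and CYLD, a deubiquitinase that restrains NF-kB, by 1.57 ± 0.67 (adjusted p = 0.403). BIRC2, an inhibitor of apoptosis proteins, EIF2AK3, the stress kinase PERK, STK3, a kinase of the Hippo pathway, and the Wnt receptor FZD6 had differences of 0.98, 0.62, 0.73 and 0.63, with adjusted p of 0.695 or more. Without replicate 2 these differences were 1.36, 1.09, 1.26 and 1.13, with adjusted p of 0.503 or more, and all 9 genes passed when 5-FU replicate 3 was also left out (beside 22.7% of all genes). In a fit of the TQ+5-FU and control arrays alone, with all 6 kept, FAS and MAP3K8 passed (adjusted p = 0.0317 and 0.0420), as did 4.15% of all genes. In all 7 genes other than ID2 and FOS, replicate 2 had the lowest signal of the TQ+5-FU arrays. In EIF2AK3, STK3 and FZD6 it also lay under every control array.

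**Figure D5:**
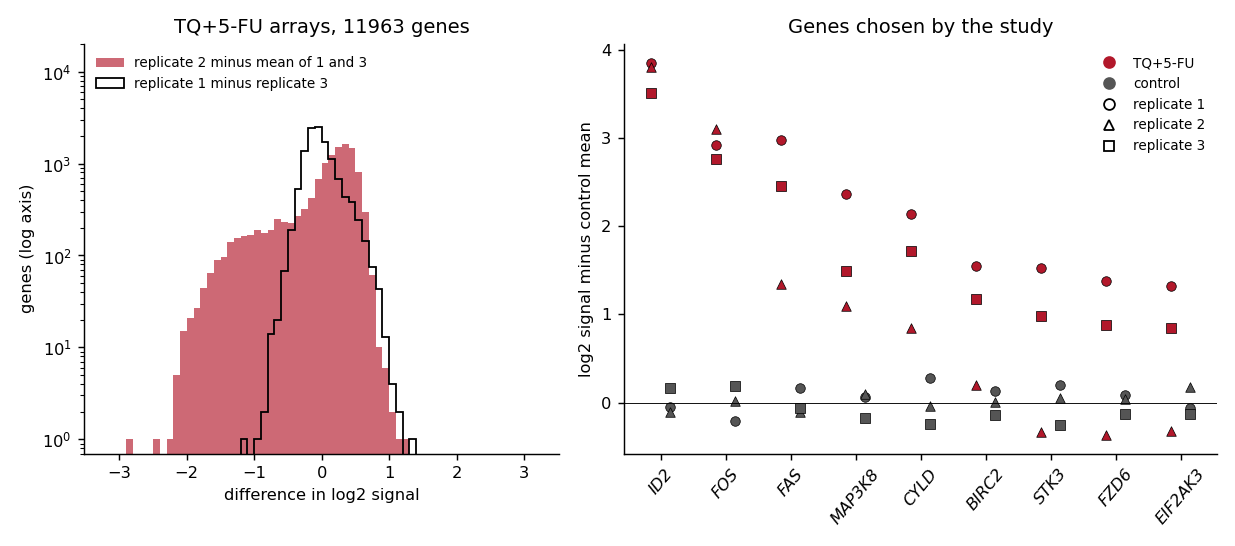
Left, number of genes (y axis, log scale) by the difference in log2 signal between TQ+5-FU replicate 2 and the mean of replicates 1 and 3 (filled) and between replicates 1 and 3 (line). Right, log2 signal minus the control mean (y axis) for 9 genes chosen by the study (x axis), with TQ+5-FU arrays in red and control arrays in grey; replicate 2 is the lowest TQ+5-FU array in the 7 genes from FAS to EIF2AK3.

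The large deviations of TQ+5-FU replicate 2 ran mostly downward. It lay over 1 log2 unit below the mean of replicates 1 and 3 in 991 of 11963 genes and over 1 above it in 4, whereas replicates 1 and 3 differed by over 1 in 8. It was above that mean in 8028 genes and in 221 of the 315 that passed. Of the 991 genes only RGS20 passed the test against control, beside 2.63% of all genes. The 991 were picked for a large spread among the TQ+5-FU arrays, which enters that test, so few of them could pass. The 4 were H3C7, H3C2, H2BC14 and DPP4. The 5 genes farthest below, EXOC5, GOLIM4, NRIP1, CALD1 and PANK3, are described without a test: EXOC5, a subunit of the exocyst, read 7.999, 5.008 and 7.634 log2 units in TQ+5-FU cells, against 7.617, 7.268 and 6.965 in control cells. APOF completes the 5 genes farthest above. H3C7, a histone gene like H3C2 and H2BC14, read 7.56, 8.76 and 7.51 log2 units in TQ+5-FU cells, against 6.80, 6.58 and 6.96 in control cells.

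Set against each drug alone, TQ+5-FU cells differed in fewer genes. Against 5-FU, 52 genes were higher and 44 lower (0.802% of those tested), and against TQ 126 were higher and 12 lower (1.15%). Without replicate 2 these counts were 19 and 27 against 5-FU (0.385%), and 30 against TQ, all of them higher (0.251%). With 5-FU replicate 3 also left out, 439 were higher and 388 lower against 5-FU (6.91%). Against TQ, 1023 were then higher and 502 lower (12.7%). The comparisons share the TQ+5-FU arrays. GDF15 averaged 10.49 ± 0.23 log2 units with both drugs, 12.05 ± 0.31 with 5-FU, 7.14 ± 0.16 with TQ and 7.70 ± 0.14 in control cells (SD, n = 3 each), and the test gave −1.56 ± 0.18 against 5-FU (limma, adjusted p = 0.0037) and 3.35 ± 0.18 against TQ (limma, adjusted p = 3.3e-05). TP53I3 and DDB2 had the same order, with −0.95 and −0.99 against 5-FU and 2.31 and 2.06 against TQ, all past the threshold.

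Other genes took other orders. ID2 averaged 10.11 ± 0.18 log2 units with both drugs, 8.60 ± 0.37 with 5-FU, 9.14 ± 0.05 with TQ and 6.39 ± 0.14 in control cells (SD, n = 3 each), and it passed against 5-FU (1.51, adjusted p = 0.0046) and against TQ (0.98, adjusted p = 0.035). HSPA6 was higher than with 5-FU by 2.70 ± 0.28 (adjusted p = 0.0035), and its difference from TQ, 0.92 ± 0.28, did not pass (adjusted p = 0.19). KLF4 and H3C2 were higher than with 5-FU by 2.58 and 2.99 and differed from TQ by 0.88 and 0.95, which did not pass. GREB1, known as an estrogen-responsive gene in breast cells, was lower than with 5-FU by 1.91 and higher than with TQ by 1.58, both past the threshold. TNFAIP3 was lower than with 5-FU by 0.70 and higher than with TQ by 0.71, with adjusted p of 0.019 and 0.018.

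Other probe sets of the named genes had the opposite sign in 2 genes that passed, DLC1 and ARID1A, in 1 probe set each. In GDF15, ACTA2, TNC and DNAJB1 the other probe set did not pass, and GREB1 has 2 others that did not. The other probe set passed with the same sign in HSPA6, ID2, KLF4 and TNFAIP3, as did 3 of the 4 others of TBL1X, both others of CLU, 1 of 2 of NQO1 and 3 of 7 of SMARCA4. None of the 3 others of FAS passed.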

How the data were processed

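RNA of RKO cells was hybridised to Affymetrix human expression arrays, 3 each for TQ+5-FU, 5-FU, TQ and control. The authors normalized the arrays by RMA and deposited log2 signals, used here as deposited. The methods name GeneSpring and the submitters' processing notes Affymetrix Expression Console for this step; no version is given in the sources used here.

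Differences came from limma 3.58.1 in R 4.3.3: 1 mean per group, all 12 arrays in 1 fit, default empirical Bayes moderation, two-sided tests, Benjamini-Hochberg adjustment over 22215 probe sets (62 control probe sets left out) and a threshold of 0.05. Every adjusted p in the text is limma's. The fit was tested on simulated data with independent noise. These held no array that stood apart across many genes, so the test does not cover that feature of the real arrays. Annotation gave 1 gene to 19064 probe sets, several to 1043 and none to 2108; a gene was read from its probe set of highest mean signal. A list's median is that of its members' log2 fold changes. The poly-A signal is the mean over 24 spike-in probe sets.

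The comparison, gene lists and rules for names were chosen with earlier results of these data known. Named were the 15 largest increases and decreases without overlap between groups, up to 4 called members per list, the study's 10 genes, the 5 genes farthest above and below in TQ+5-FU replicate 2, and those called only without it. MDM2, CDKN1A, PLK2, SESN1 and the other members outside this rule were named after their values were seen. Of 106 genes named by the rule, 89 had a RefSeq window (GRCh38.p14). The plots were made in matplotlib 3.10.9 under Python 3.11.15.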

Additional observations from a re-analysis of the deposited data

How the results depend on the processing

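No named gene that passed changed sign under any setting, and 42 of these 87 passed in each of the 12 fits that left out 1 array. Without TQ+5-FU replicate 2, 53 passed, and all 87 did when 5-FU replicate 3 was also left out. The count of probe sets past the threshold (573) was 183 to 2333 with 1 array left out, lowest without control replicate 1 and highest without 5-FU replicate 3. It fell to 286, 257 and 281 without TQ+5-FU replicates 1, 2 and 3, to 372, 352 and 340 without TQ replicates 1, 2 and 3, and to 188 and 232 without control replicates 2 and 3. The 2-fold count (187) was 116 to 297 with 1 array left out, with 116 and 118 without control replicates 1 and 2 and 297 without 5-FU replicate 3.

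Fitting only the TQ+5-FU and control arrays gave 863, and 3751 (337 at 2-fold) without TQ+5-FU replicate 2. Leaving out that array and 5-FU replicate 3 gave 4762 (343 at 2-fold), and the poly-A signal as a covariate 4883 (456 at 2-fold, 221 higher and 235 lower). Centring each array on its median gave 373, ANOVA followed by Tukey's HSD, as in the methods, 1027, and the methods' t-test gave 3552 unadjusted and 546 after Benjamini-Hochberg (121 at 2-fold). Quantile normalization (563), trend and robust estimation (398) and leaving out the 30% dimmest probe sets (597) stayed within 1.5 times. Against 5-FU the count (164) was 75 without TQ+5-FU replicate 2 and 1362 without both arrays; against TQ (215) it was 45 and 2606. The cause of these shifts was not tested. Array weights were not run, because their estimation did not converge.

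With the replicate number as a block, 325 probe sets passed against control, 68 against 5-FU and 79 against TQ. Deviations of TQ+5-FU and control arrays with the same number correlated at 0.651, −0.0294 and −0.435, and those with other numbers from −0.663 to 0.664. Deviations from a mean of 3 arrays depend on each other, so these values cannot tell whether the numbers pair the arrays. Reading a gene from its probe set of median change ended the call in 10 of the 26 named genes where that probe set differed.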

Other observations

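Without TQ+5-FU replicate 2, 3 genes passed that did not pass with it, all lower in TQ+5-FU cells. DLEU2, a noncoding host transcript of microRNAs, had 6.80, 7.45 and 7.09 log2 units in TQ+5-FU replicates 1, 2 and 3, against 7.67, 7.72 and 7.98 in control cells, a difference of −0.68 with all arrays (limma, adjusted p = 0.0761) and −0.84 without replicate 2 (limma, adjusted p = 0.0410). TUBAL3, a tubulin-like gene, differed by −0.59 and −0.71 (adjusted p = 0.0572 and 0.0450). TFAP4, a transcription factor of the helix-loop-helix family, differed by −0.50 and −0.71 (adjusted p = 0.233 and 0.0450). In each of the 3 genes replicate 2 was the TQ+5-FU array nearest to the control arrays. Picking genes that pass only without that array favors this pattern, so it is no separate result.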
